A study of Mus musculus with 32 samples.

Results

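The genes described here are 39 interferon-stimulated genes of the mouse, that is, genes whose transcription is switched on when a cell is exposed to an interferon, followed in the kidney after the anticancer drug cisplatin. They were chosen by name, from knowledge of the interferon response, but with earlier results of these data known, so the choice was not independent of the data. They were matched to the array through the transcript accession of each probe, and where a gene had several probes, the brightest was used. Of the 39 genes, 37 had a matched probe and all 37 passed the filter on dim probes, among 23743 genes and transcripts tested. Mx1 and Mx2, antiviral GTPases, had no matched probe and are not analysed here.

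Male mice 12 to 16 weeks old were either miR-155-/-, from the line B6.Cg-Mir155tm1.1Rsky/J, or wild type C57BL/6, matched for age and weight but bought from a different breeder. The labels name no cell type or tissue to which the deletion was limited, so it applies to immune cells and kidney cells alike. In each genotype 1 group received saline and was collected at 0 h, and 3 groups received 1 injection of 20 mg/kg cisplatin and were collected at 24, 48 or 72 h. Each of the 8 groups held 4 arrays, each with RNA from whole ground kidney of a separate animal, so 32 one-colour Agilent arrays in all. There was no saline group at 24, 48 or 72 h, so that time after injection and the drug cannot be told apart. Because the whole organ was ground, a lower value may come from fewer cells of a type or from less RNA per cell, and these cannot be told apart.

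Cells detect foreign or misplaced nucleic acid with sensors such as RIG-I, MDA5 and cGAS, which lead to the secretion of interferons. A type I interferon binds its receptor, whose kinases JAK1 and TYK2 phosphorylate proteins of the STAT family. With IRF9 these form the complex ISGF3, which binds the interferon-stimulated response element (ISRE) of target promoters, whereas interferon gamma acts mainly at a different site, the GAS element. Cisplatin damages nuclear and mitochondrial DNA and injures the proximal tubule of the kidney. miR-155 is a microRNA of activated immune cells, and a well known target of it is Socs1, a brake on JAK-STAT signalling.

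The sequence that the knockout mice lack is shown first, with the seed, bases 2 to 8 of the mature strand, in capitals. It lies at chr16:84714143-84714165 on the plus strand of GRCm38.p6, and the sequence is from RefSeq.
mmu-miR-155-5p: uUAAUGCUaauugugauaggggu

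Promoter sequences, from RefSeq on GRCm38.p6, were at hand for 28 of the 39 genes as windows of 300 bases, 250 before the transcription start and 50 after. They were searched on both strands for the ISRE core GAAANNGAAA, whose reverse complement is TTTCNNTTTC. The core was found in 16 of the 28 genes (57.1%), against 3.44% of all 32851 promoter windows and 3.99% of all 27025 genes in the table. It was found in 5 of the 10 genes with a promoter that rose in all 6 cisplatin comparisons described below, in 8 of the 11 that rose in 1 to 5, and in 3 of the 7 that rose in none. The GAS letters TTCNNNGAA, which read the same on both strands, were found in 7 of the 28 genes (25.0%), against 8.30% of all windows and 9.55% of all genes in the table. A match describes letters only and does not show that a factor bound there. The windows of Oas1a, Bst2, Ifitm3 and Igtp held both, and in Bst2 and Ifitm3 they overlapped.

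The stretches before the transcription start of 6 members follow because they show the forms the core took; capitals mark every matched core, and the strand is that of the gene. In Isg15, at chr4:156200851-156200920 on the minus strand, 3 cores overlapped to make 1 run. Ifit1, at chr19:34640764-34640833 on the plus strand, and Ifit3, at chr19:34583360-34583429 on the plus strand, each held 2 separate cores, read on the other strand. Oas1a, at chr5:120907526-120907572 on the minus strand, held 2 overlapping cores close to the start. Cxcl10, at chr5:92349063-92349132 on the minus strand, and Rsad2, at chr12:26456533-26456602 on the minus strand, held 1 each. Isg15, Ifit1 and Cxcl10 rose in all 6 comparisons, Ifit3 and Oas1a rose in knockout comparisons, and Rsad2 rose in none.
Isg15: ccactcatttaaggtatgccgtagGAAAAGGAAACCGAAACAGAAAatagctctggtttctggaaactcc
Ifit1: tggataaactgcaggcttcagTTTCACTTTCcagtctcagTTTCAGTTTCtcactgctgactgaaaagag
Ifit3: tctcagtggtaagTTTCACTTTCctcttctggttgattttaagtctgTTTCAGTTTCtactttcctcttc
Oas1a: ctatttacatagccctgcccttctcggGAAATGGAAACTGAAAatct
Cxcl10: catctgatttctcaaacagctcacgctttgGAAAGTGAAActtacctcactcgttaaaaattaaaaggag
Rsad2: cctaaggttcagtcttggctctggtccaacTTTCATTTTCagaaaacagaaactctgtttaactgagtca

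Levels are given as the log2 of the array signal minus the array's own 75th percentile, so that 0 is the level of a probe brighter than 75% of that array's probes, and levels of different genes are not compared. Of the probes, 68.8 to 82.2% were well above background on an array, and 35 of the 37 measured members were so on all 32 arrays. Ifi27l2b was well above background on 2 of 4 saline arrays in each genotype and on every cisplatin array. It passed the filter through the cisplatin groups, where it is high. Oas3 reached this on all 4 arrays of the wild type at 24 h only, the group that let it pass the filter. Both genes stay among the 37, and the main counts are also given for the other 35, a choice made after seeing the data; no size or rank is given for Oas3. Knockout replicate 3 at 48 h had the highest value on the first principal component over all genes (40.4% of the variance), with knockout replicates 3 and 4 at 24 h next at that end and the 8 saline arrays at the other. The kidney tubule markers were present and fell in every cisplatin comparison, from 6 to 11 of 11 markers. Of all genes, 22.5% fell in the knockout at 24 h and 12.8% in the wild type at 72 h. The mean over 10 macrophage and monocyte markers was below the wild-type saline mean on all 24 cisplatin arrays, at -1.30 to -0.39 in the wild type and -2.17 to -0.25 in the knockout. The knockout saline arrays were below it too, at -0.37 to -0.12, and the knockout cisplatin range overlapped theirs. The mean over the markers of plasmacytoid dendritic cells, which make much type I interferon, was also below the wild-type saline mean on all 24 cisplatin arrays, at -0.98 to -0.21 in the wild type and -1.21 to -0.34 in the knockout. Bst2, a member, was left out of this mean. On the knockout saline arrays this mean ran from -0.37 to 0.002, which the knockout cisplatin range also overlapped. Of these markers, Siglech gave log2 differences of -0.04 to 0.13 in the 6 cisplatin comparisons, with no adjusted p under 0.05. The part of these cell types in the results was not tested.

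Many interferon-stimulated genes rose after cisplatin in both genotypes. In the wild type 14 of 37 genes rose at 24 h, where 21.0% of all genes tested rose, 21 rose at 48 h, where 12.2% of all genes rose, and 18 rose at 72 h, where 12.5% rose. In the knockout 13 of 37 rose at 24 h against 26.6% of all genes, 26 at 48 h against 22.7%, and 27 at 72 h against 17.7%. These calls are by limma with a Benjamini-Hochberg adjusted p under 0.05 over all 23743 genes. Without Oas3 and Ifi27l2b, 13, 20 and 17 of 35 rose in the wild type and 12, 25 and 26 in the knockout, at 24, 48 and 72 h.

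The median log2 difference of the 37 genes from saline of the same genotype was 0.38 at 24 h, 0.87 at 48 h and 0.65 at 72 h in the wild type. The median over all genes in the same comparisons was 0.07, 0.00 and 0.03. In the knockout the members' median was 0.35 at 24 h, 0.80 at 48 h and 0.95 at 72 h, against -0.01, -0.05 and -0.02 over all genes. The wild-type median at 24 h depended on single arrays, being 0.16 without replicate 4 and 0.59 without replicate 1 of that group. With the array slide as a block, the median was 0.29 in the wild type and 0.20 in the knockout at 24 h. Without knockout replicate 3 at 48 h, the array that stood apart, 27 genes rose in the knockout at 48 h and the median was 1.02. Without knockout replicate 3 at 24 h, 11 genes were called in the knockout at 24 h.

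A pair of members fell past the threshold. Ifi44 was lower in the knockout at 24 h, with a log2 difference of -1.46 (SE 0.39, adjusted p = 0.00304), in a comparison where 22.5% of all genes fell. Ifi27l2a was lower in the wild type at 72 h, with a difference of -1.73 (SE 0.46, adjusted p = 0.0061), where 12.8% of all genes fell. In the other 5 cisplatin comparisons both gave differences with no call, from -0.90 to -0.47 for Ifi44 and from -0.79 to 0.03 for Ifi27l2a.

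**Figure D1:**
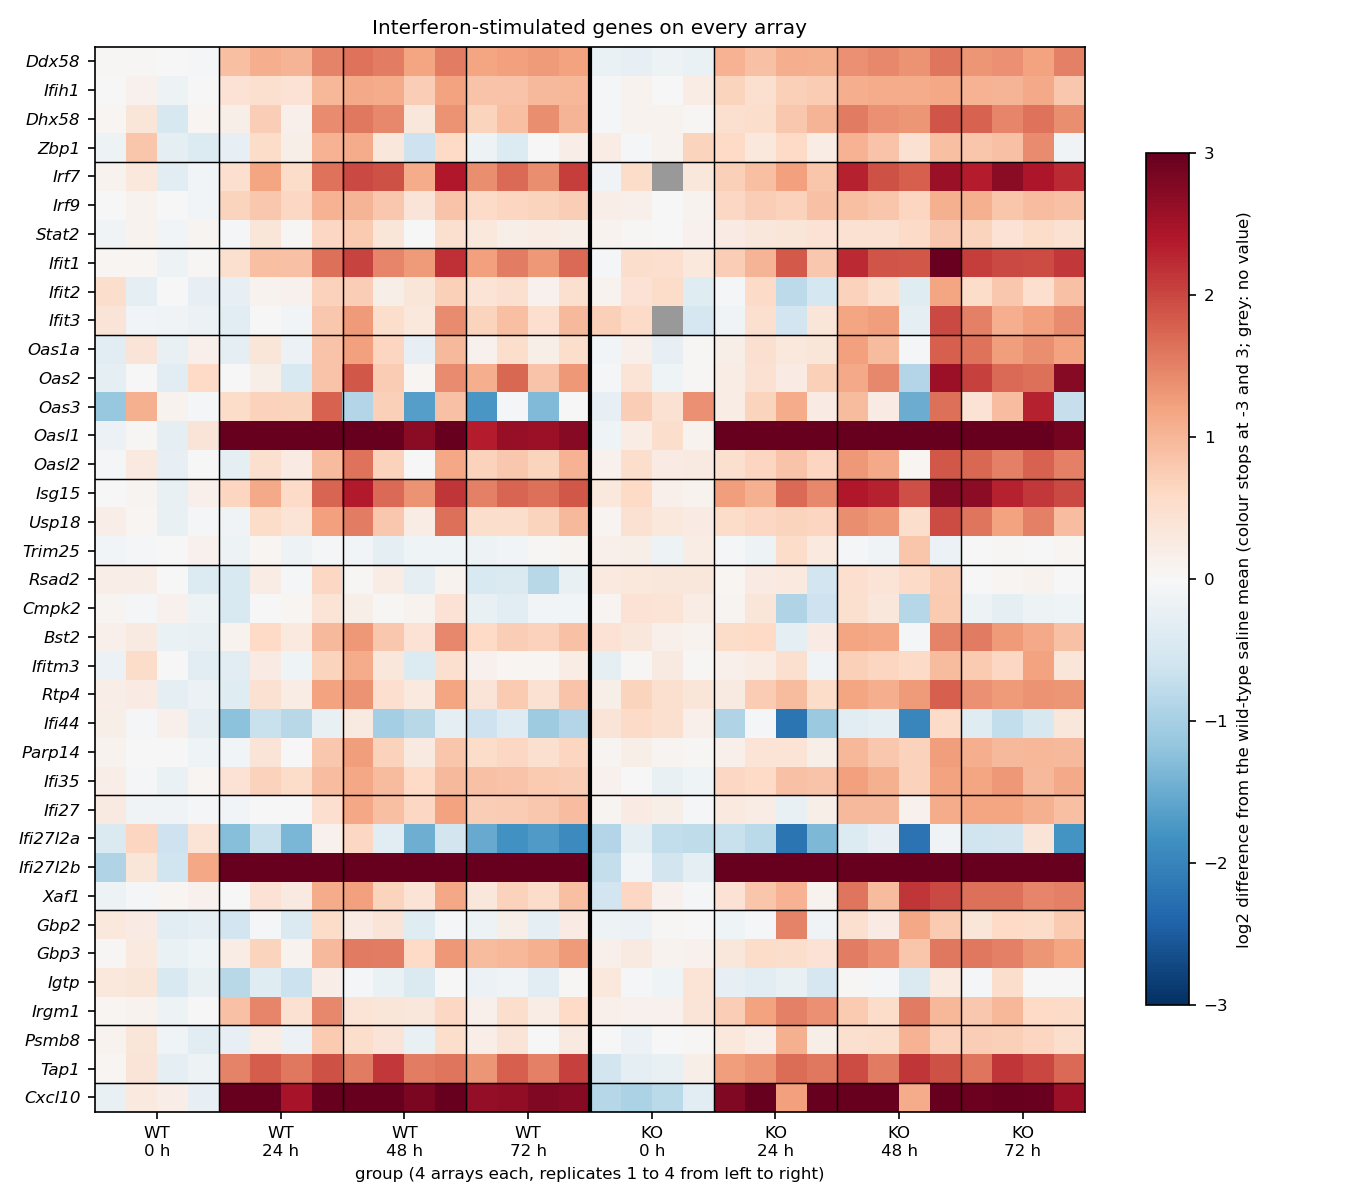
Log2 difference of each of the 37 genes from its wild-type saline mean, with 1 column per array, 4 arrays per group, wild type (WT) on the left and miR-155 knockout (KO) on the right; colours stop at -3 and 3 and grey marks a missing value. Oasl1, Ifi27l2b and Cxcl10 are dark red on nearly all cisplatin arrays, Ifi44 and Ifi27l2a are mostly blue, and the row of Cxcl10 shows the pale cells of knockout replicate 3 at 24 and 48 h.

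A core of 12 genes rose in all 6 cisplatin comparisons, namely Ddx58, Ifih1, Dhx58, Irf7, Irf9, Ifit1, Oasl1, Isg15, Ifi35, Ifi27l2b, Tap1 and Cxcl10, where 6.08% of all genes did. At 24 h, 13 genes had risen in both genotypes (18.4% of all genes), these 12 and Irgm1. Both counts hold Ifi27l2b, which passed the filter only through the cisplatin groups, where it is high. Its calls are therefore not taken as support for a rise. A set of 4 genes, Oasl2, Bst2, Parp14 and Ifi27, was not called at 24 h in either genotype and rose at 48 and 72 h in both, as 0.59% of all genes did. Another 5 genes, Ifit3, Oas1a, Ifitm3, Gbp2 and Psmb8, rose in at least 1 knockout comparison and in no wild-type one, and none rose in the wild type alone. Over all genes the shares were 9.86% and 3.15%, so that calls in the knockout alone were the more frequent there too. That the rise differed between the genotypes was not called for any of these 5 genes by the interaction test described below. Finally, 9 genes rose in none, against 63.8% of all genes: Zbp1, Ifit2, Oas3, Trim25, Rsad2, Cmpk2, Ifi44, Ifi27l2a and Igtp.

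**Figure D2:**
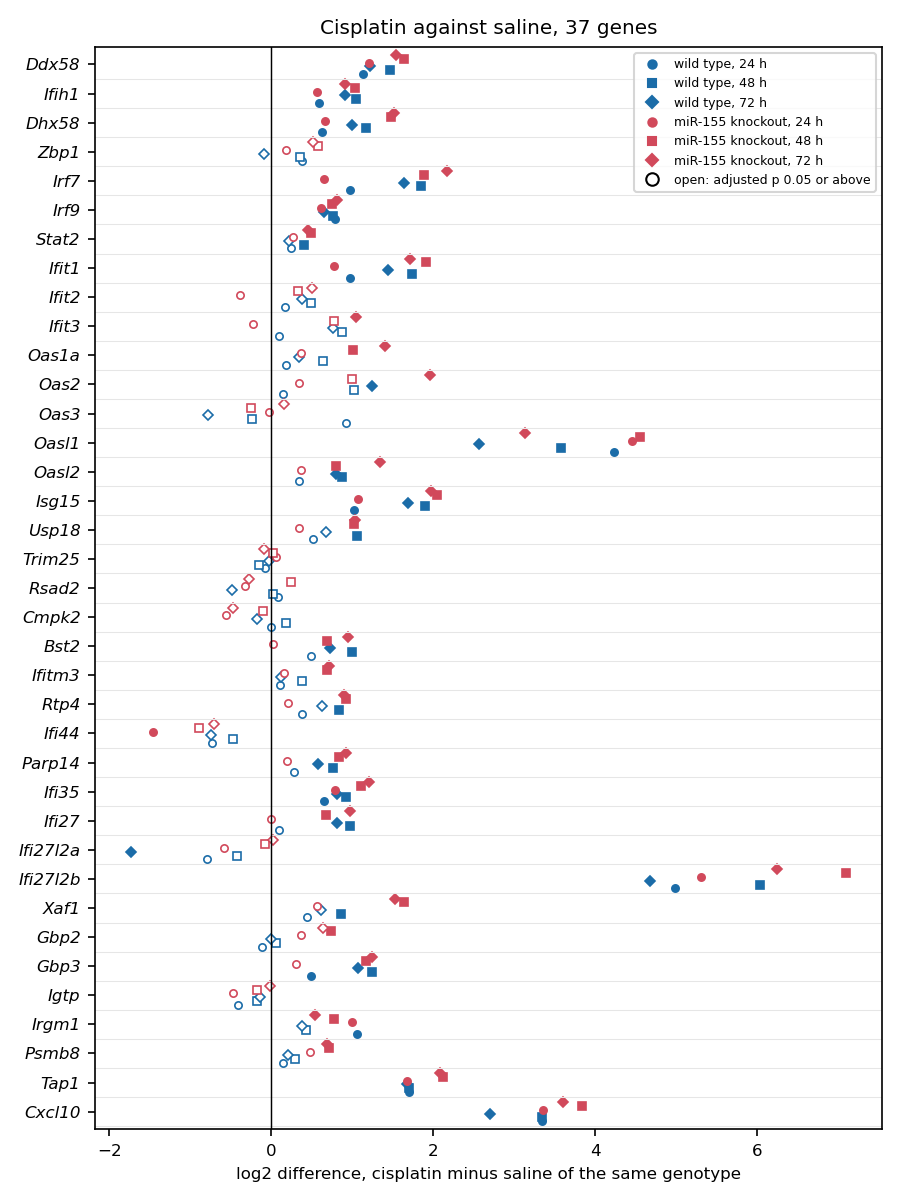
Log2 difference between cisplatin and saline of the same genotype for each of the 37 genes (rows), with circles for 24 h, squares for 48 h and diamonds for 72 h, wild type in blue and knockout in red; filled symbols have an adjusted p under 0.05 and open ones do not. Ifi27l2b, at 4.68 to 7.10, Oasl1, at 2.57 to 4.56, and Cxcl10, at 2.70 to 3.84, lie far to the right of the others; Ifi27l2b was above background on 2 of 4 saline arrays in each genotype.

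Among the sensors, 3 of 4 rose in all 6 comparisons, as 6.08% of all genes did. Ddx58, which encodes RIG-I, the sensor of RNA with a triphosphate end, rose by 1.13, 1.47 and 1.22 (log2, SE 0.10 each) at 24, 48 and 72 h in the wild type. In the knockout it rose by 1.21, 1.64 and 1.54, with adjusted p between 1.68e-12 and 1.37e-09 over the 6 comparisons. A second, dimmer probe of Ddx58 differed by only -0.01 to 0.47, so that the size of the rise depended on the probe. Ifih1, which encodes MDA5, the sensor of long double-stranded RNA, rose by 0.57 to 1.05. A second, dimmer probe of Ifih1 differed by 0.06 to 0.77. Dhx58, which encodes LGP2, the regulator of RIG-I and MDA5, rose by 0.63 to 1.52. Zbp1, a sensor of Z-form nucleic acid linked to necroptosis, was not called, with log2 differences from -0.09 to 0.58.

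Of the 3 transcription factors, Irf7 and Irf9 rose in all 6 comparisons. Irf7, the factor that drives the interferon alpha genes, was at -2.34, -2.13, -2.80 and -2.52 on the 4 wild-type saline arrays, and on the 3 knockout saline arrays with a value it was at -2.55, -1.91 and -2.11. In the wild type it was at -1.94, -1.27, -1.89 and -0.81 at 24 h, -0.48, -0.53, -1.35 and -0.05 at 48 h and -1.06, -0.75, -1.05 and -0.38 at 72 h. In the knockout it was at -1.73, -1.56, -1.22 and -1.62 at 24 h, -0.15, -0.54, -0.66 and 0.15 at 48 h and -0.09, 0.25, -0.02 and -0.21 at 72 h. Every cisplatin array was above every saline array of its genotype. At 72 h the 4 knockout arrays were all above the 4 wild-type ones, but the genotype difference of Irf7 was not called. The rise was 1.96-fold, 3.59-fold and 3.12-fold in the wild type, with adjusted p of 0.00309, 3.4e-06 and 1.51e-05. In the knockout it was 1.57-fold, 3.69-fold and 4.49-fold, with adjusted p of 0.0469, 4.18e-06 and 4.85e-07. Irf9, the DNA-binding subunit of ISGF3, rose by 0.62 to 0.81 (log2). Stat2, the subunit specific to interferon signalling, rose in the knockout at 48 and 72 h, by 0.50 and 0.45, and in the wild type at 48 h, by 0.41.

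The IFIT proteins bind RNA that lacks the host's cap modification. Ifit1 was at -3.09, -3.1, -3.31 and -3.11 on the wild-type saline arrays and at -3.21, -2.63, -2.65 and -2.85 on the knockout ones. After cisplatin the wild-type arrays were at -2.67, -2.26, -2.28 and -1.50 at 24 h, -1.12, -1.69, -1.87 and -0.97 at 48 h and -1.92, -1.62, -1.85 and -1.46 at 72 h. The knockout arrays were at -2.41, -2.14, -1.31 and -2.36 at 24 h, -0.91, -1.27, -1.30 and -0.19 at 48 h and -1.09, -1.16, -1.19 and -1.04 at 72 h. No cisplatin array overlapped the saline arrays of its genotype, and the level at 48 and 72 h was above that of most 24 h arrays. The rise at 48 h was 3.34-fold in the wild type and 3.78-fold in the knockout (log2 1.74, SE 0.25, and 1.92, SE 0.25; adjusted p 6.53e-06 and 8.57e-07). Ifit3 passed the threshold in the knockout at 72 h, with 1.05 (adjusted p = 0.0297), and its differences elsewhere ran from -0.22 to 0.88. Ifit2, with -0.39 to 0.50, was not called.

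The members of the OAS family differed from each other in size and time of response. The enzymes Oas1a, Oas2 and Oas3 make the short oligoadenylates that activate the ribonuclease RNase L, whereas Oasl1 is a relative without that activity. Oasl1, known as a translational repressor of Irf7, was at -1.09, -0.88, -1.18 and -0.53 on the wild-type saline arrays and at -1.05, -0.70, -0.38 and -0.82 on the knockout ones. Wild-type values after the drug were 3.27, 3.79, 2.24 and 3.97 at 24 h, 2.91, 3.48, 1.78 and 2.48 at 48 h and 1.43, 1.69, 1.65 and 1.82 at 72 h. Knockout values were 3.1, 3.03, 5.08 and 3.65 at 24 h, 3.48, 3.19, 4.99 and 3.62 at 48 h and 2.65, 2.52, 2.48 and 1.96 at 72 h. All 24 cisplatin arrays lay above all 8 saline arrays, and the highest values were those of knockout replicate 3 at 24 and 48 h. The rise was 18.9-fold at 24 h, 12-fold at 48 h and 5.92-fold at 72 h in the wild type, with adjusted p of 3.27e-09, 1.28e-07 and 1.75e-05. In the knockout it was 21.9-fold, 23.5-fold and 8.8-fold, with adjusted p of 1.55e-09, 1.18e-09 and 5.52e-07.

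Oas2 rose later. It was at -1.79, -1.48, -1.81 and -0.89 on the wild-type saline arrays and at -1.54, -1.09, -1.62 and -1.45 on the knockout ones. The wild-type cisplatin groups gave -1.49, -1.32, -1.94 and -0.63 at 24 h, 0.36, -0.73, -1.43 and -0.08 at 48 h and -0.40, 0.23, -0.63 and -0.20 at 72 h. The knockout cisplatin groups gave -1.27, -1.02, -1.25 and -0.77 at 24 h, -0.35, -0.05, -2.38 and 1.07 at 48 h and 0.56, 0.20, 0.15 and 1.23 at 72 h. The 24 h arrays overlapped the saline arrays in both genotypes, the 72 h arrays did not, and knockout replicate 3 at 48 h was the lowest of all 32 arrays. Oas2 passed the threshold at 72 h only, 2.37-fold in the wild type (adjusted p = 0.0403) and 3.89-fold in the knockout (adjusted p = 0.00101). At 48 h the knockout difference was 1.0 with no call, and without replicate 3 it was 1.65 and called, as it was with array weights (1.66). Oas1a rose in the knockout at 48 and 72 h, by 1.01 and 1.40, against 0.65 and 0.34 with no call in the wild type. Oasl2 rose at 48 and 72 h in both genotypes, by 0.80 to 1.34.

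ISG15 is a ubiquitin-like protein that is attached to other proteins during the interferon response. Isg15 was at 0.38, 0.47, 0.17 and 0.54 on the wild-type saline arrays and at 0.71, 0.98, 0.54 and 0.50 on the knockout ones. In the wild type it was at 1.03, 1.52, 0.97 and 2.14 at 24 h, 2.77, 2.09, 1.74 and 2.53 at 48 h and 1.89, 2.14, 2.05 and 2.26 at 72 h. In the knockout it was at 1.64, 1.45, 2.10 and 1.84 at 24 h, 2.79, 2.69, 2.32 and 3.14 at 48 h and 3.08, 2.69, 2.51 and 2.37 at 72 h. Every cisplatin array lay above every saline array of its genotype. At 72 h every knockout array lay above every wild-type one, but the genotype difference of Isg15 was not called. The rise was 2.04-fold to 3.72-fold in the wild type and 2.11-fold to 4.15-fold in the knockout, highest at 48 h in both, with adjusted p from 5.3e-08 to 0.000608. A second probe of Isg15 gave log2 differences of 0.99 to 2.08, against 1.03 to 2.05 for the one used. Usp18, the protease that removes ISG15 and dampens receptor signalling, rose at 48 h in both genotypes, by 1.06 and 1.02, and in the knockout at 72 h. Trim25, the ubiquitin ligase that activates RIG-I, was within 0.16 of saline in all 6 comparisons and was not called.

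Of the 8 other antiviral effectors measured, 4 rose at 48 h in the wild type, against 12.2% of all genes, and 5 in the knockout, against 22.7%. Bst2, the membrane protein that tethers budding virus, rose by 1.0 and 0.72 at 48 and 72 h in the wild type and by 0.69 and 0.95 in the knockout. Parp14, an ADP-ribosyltransferase, rose by 0.57 to 0.92 at these times, and Ifi35 rose at all times by 0.65 to 1.20. Rtp4 rose at 48 h in both genotypes and in the knockout at 72 h, by 0.83 to 0.92. Ifitm3, which blocks fusion of virus with the cell, rose in the knockout at 48 and 72 h, by 0.70 and 0.72. Rsad2, which encodes viperin, and its neighbour Cmpk2, a nucleotide kinase, are strongly interferon-responsive in many cells and were not called here, with differences of -0.49 to 0.25 and -0.55 to 0.19.

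The IFI27 family encodes small membrane proteins. By the probe used, Ifi27l2b gave the largest differences of all members, but against a saline level measured above background on 2 of 4 arrays in each genotype. Ifi27l2b was at -7.80, -6.52, -7.50 and -5.74 on the wild-type saline arrays and at -7.61, -6.98, -7.45 and -7.19 on the knockout ones. After cisplatin the wild-type arrays were at -1.58, -2.0, -2.46 and -1.55 at 24 h, -0.15, -0.16, -1.80 and -1.30 at 48 h and -2.75, -2.36, -1.93 and -1.79 at 72 h. The knockout arrays were at -1.56, -2.46, -2.08 and -1.89 at 24 h, -0.12, -0.55, 0.18 and -0.33 at 48 h and -0.48, -0.85, -1.0 and -1.91 at 72 h. Saline and cisplatin arrays were apart by more than 2 log2 units in both genotypes. The differences were 4.99, 6.04 and 4.68 in the wild type and 5.31, 7.10 and 6.25 in the knockout (SE 0.38 each). No adjusted p is given for them, since the gene passed the filter only through the cisplatin groups, where it is high. With each saline array held at no less than its lowest signal well above background, they were 4.56 to 5.92 and 5.30 to 7.09. Their size and rank depended on the processing: at 48 h it was 3.31 and 3.93 with another background correction (normexp), and 3.49 and 4.16 as the mean of both probes, and in both settings the rise of Oasl1 was the larger (3.46 and 4.23, and 3.58 and 4.56). The second probe alone differed by 0.41 to 1.22, less than several other members. The near copy Ifi27l2a did not rise in any comparison, and how far the probes of these copies bind each other's transcript was not tested.

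Ifi27 itself rose at 48 and 72 h, by 0.97 and 0.81 in the wild type and by 0.68 and 0.97 in the knockout. Xaf1, an antagonist of the apoptosis inhibitor XIAP, rose at 48 h by 0.87 in the wild type and by 1.64 in the knockout, where it also rose at 72 h, by 1.53. A second, dimmer probe of Xaf1 gave 0.22 to 0.56.

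The 4 GTPases more tied to interferon gamma moved apart from each other. Gbp3, a guanylate-binding protein, rose by 0.49, 1.24 and 1.07 in the wild type, and in the knockout by 1.17 and 1.24 at 48 and 72 h. Gbp2 rose in the knockout at 48 h only, by 0.73. Irgm1, a regulator of autophagy, rose at 24 h, by 1.06 and 1.0, and in the knockout at 48 and 72 h by 0.78 and 0.54. Igtp was at -0.46 to -0.02 relative to saline, with no call.

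In antigen processing, Tap1, a subunit of the transporter that carries peptides to MHC class I molecules, was at -2.95, -2.62, -3.29 and -3.16 on the wild-type saline arrays and at -3.55, -3.28, -3.23 and -2.83 on the knockout ones. Wild-type values after the drug were -1.52, -1.18, -1.43 and -1.09 at 24 h, -1.45, -0.89, -1.47 and -1.40 at 48 h and -1.68, -1.20, -1.48 and -0.95 at 72 h. Knockout values were -1.74, -1.65, -1.33 and -1.43 at 24 h, -1.04, -1.44, -0.85 and -1.09 at 48 h and -1.40, -0.87, -1.0 and -1.30 at 72 h. All 24 cisplatin arrays were above all 8 saline arrays, and the 3 times differed little within a genotype. The rise was 3.20-fold to 3.25-fold in the wild type and 3.21-fold to 4.34-fold in the knockout, with adjusted p of at most 7.8e-08. Psmb8, a catalytic subunit of the immunoproteasome, rose in the knockout at 48 and 72 h, by 0.72 and 0.69.

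Cxcl10, the chemokine that draws CXCR3-bearing T cells, was at -1.55, -1.03, -1.13 and -1.57 on the wild-type saline arrays and at -2.18, -2.28, -2.12 and -1.64 on the knockout ones. The wild-type cisplatin groups gave 1.86, 2.69, 1.14 and 2.39 at 24 h, 2.29, 2.58, 1.51 and 1.72 at 48 h and 1.32, 1.33, 1.45 and 1.41 at 72 h. The knockout cisplatin groups gave 1.47, 2.07, -0.09 and 1.76 at 24 h, 2.67, 2.25, -0.20 and 2.41 at 48 h and 1.61, 1.69, 1.64 and 1.25 at 72 h. All 24 cisplatin arrays were above all 8 saline arrays, and knockout replicate 3 was the lowest of its group at both 24 and 48 h. The rise was 6.49-fold to 10.2-fold in the wild type and 10.2-fold to 14.3-fold in the knockout, with adjusted p of at most 3.45e-05. Without replicate 3, the knockout difference at 48 h was 4.50 in place of 3.84.

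**Figure D3:**
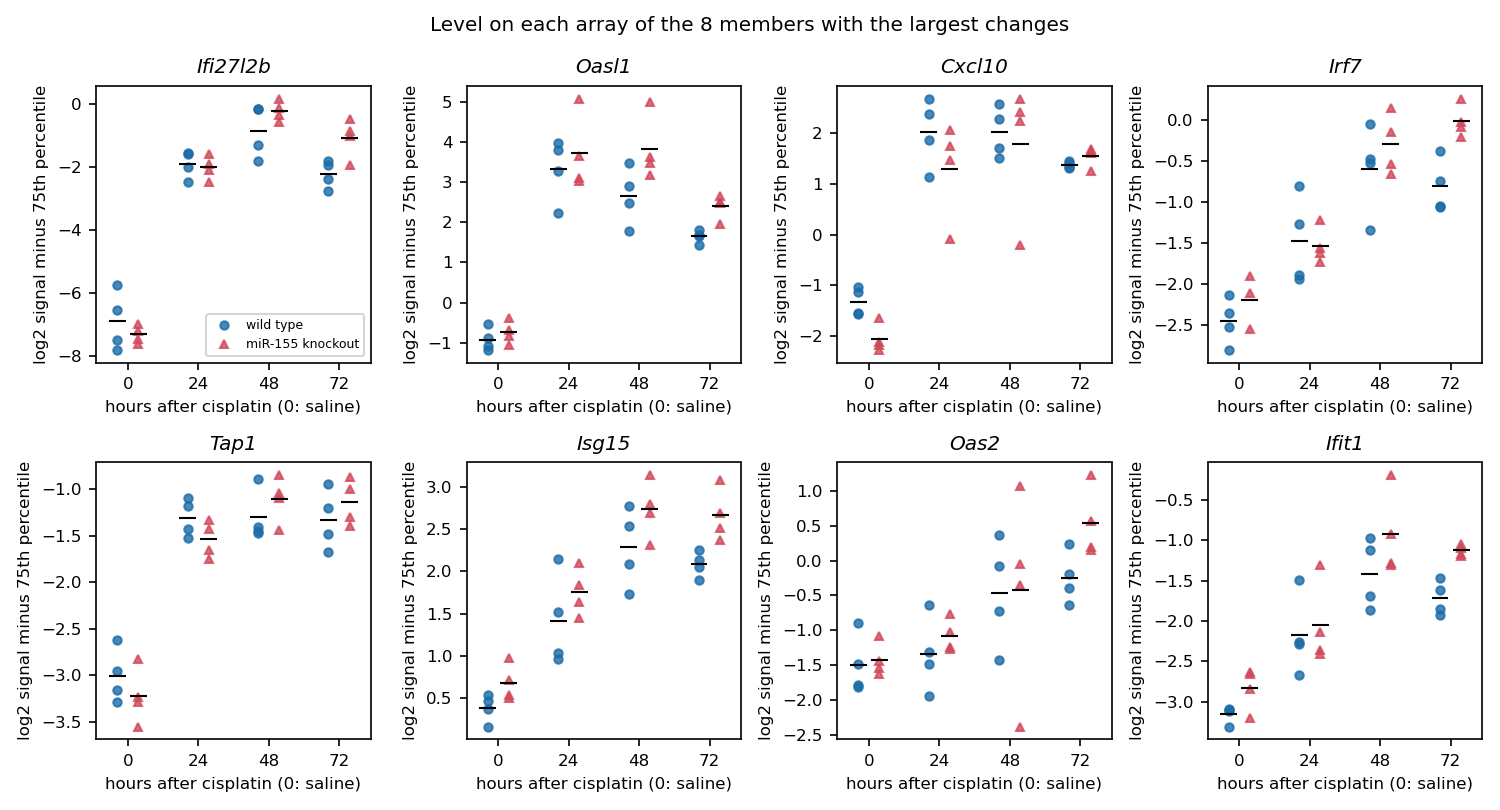
Level on each array (log2 signal minus the array's 75th percentile) of the 8 genes with the largest called differences, by hours after cisplatin, with 0 for saline; blue circles are wild type, red triangles are knockout and black bars are group means. Oasl1 is highest at 24 h or 48 h and lower at 72 h, Oas2 rises only after 24 h, and Irf7 and Ifit1 of the knockout stay high at 72 h.

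The course from 24 to 72 h was then compared within each genotype. In the wild type 5 of 37 genes were higher at 72 h than at 24 h, where 11.9% of all genes were higher, and 3 were lower, where 14.7% were lower. Those higher were Ifih1, Irf7, Isg15, Ifi27 and Gbp3, by 0.33 to 0.71, and those lower were Oasl1, Irgm1 and Rsad2, with differences of -1.67, -0.68 and -0.57. This count of 8 calls became 4 without wild-type replicate 1, 2 or 3 at 24 h and 5 without replicate 3 or 4 at 72 h. In the knockout 19 of 37 genes were higher at 72 h than at 24 h, where 13.6% of all genes were higher, and 1 was lower, Oasl1, where 18.3% of all genes were (log2 difference -1.31, SE 0.40, adjusted p = 0.0127). The largest were Oas2, 1.61, Irf7, 1.51, and Ifit3, 1.27. The median over the members was 0.15 in the wild type and 0.61 in the knockout, against -0.03 over all genes in both. The wild-type median was -0.0012 without replicate 1 at 24 h and 0.35 without replicate 4, and the difference between the genotypes in this step was not tested. Within the 3 slides that held wild-type arrays of both times, the wild-type median was 0.58, -0.33 and 0.27, so that its direction was not the same on each, and on the 1 such slide of the knockout it was 0.55.

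The mean over the 37 genes, as the difference from the wild-type saline mean, shows the same values per array. Saline arrays ran from -0.16 to 0.20 in the wild type and from -0.02 to 0.20 in the knockout. At 24 h the arrays ran from 0.34 to 1.23 in the wild type and from 0.63 to 0.76 in the knockout. At 48 h they ran from 0.45 to 1.32 and from 0.83 to 1.66. The 2 genotypes overlapped at 0, 24 and 48 h. At 72 h they did not, with 0.58 to 0.88 in the wild type and 1.08 to 1.33 in the knockout. Over the 35 genes without Oas3 and Ifi27l2b the ranges at 72 h were 0.54 to 0.78 and 1.02 to 1.20.

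**Figure D4:**
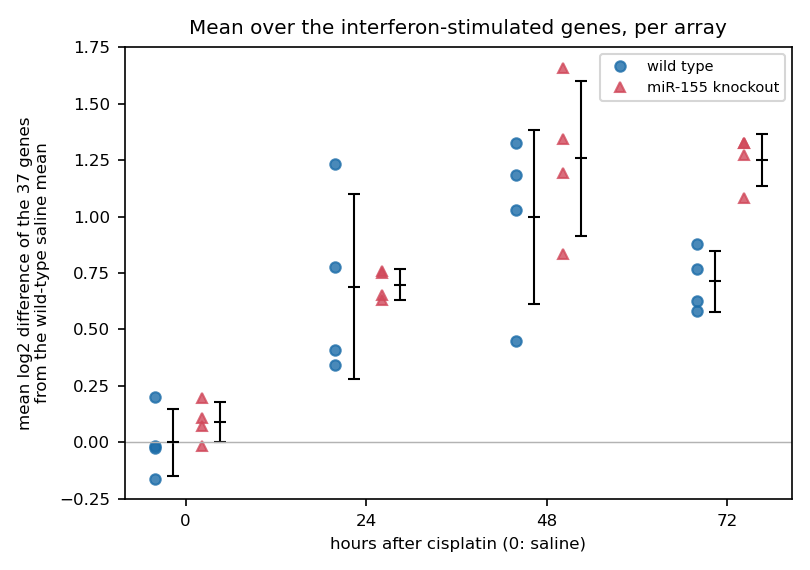
Mean log2 difference of the 37 genes from the wild-type saline mean, by hours after cisplatin, with 1 point per array and the group mean with its SD (n = 4) beside it; blue circles are wild type and red triangles are knockout. At 72 h the knockout arrays, at 1.08 to 1.33, lie above the wild-type arrays, at 0.58 to 0.88, and at the other times the points overlap.

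Whether the genotype changed the level was asked at each time. No member was called between knockout and wild type at 0, 24, 48 or 72 h by limma, where 0.114%, 0.08%, 0.101% and 0.72% of all genes were called. At 72 h, 36 of the 37 members were higher in the knockout, where 43.4% of all genes were, with a median of 0.53 against -0.04 over all genes. Of these members, 20 had an unadjusted p under 0.05, against 10.9% of all genes tested, all 20 higher in the knockout, and the smallest adjusted p was 0.0853. Without Oas3 and Ifi27l2b, 34 of 35 were higher, with a median of 0.49, and 18 had an unadjusted p under 0.05. At 48 h, 30 of 37 were higher, against 46.4% of all genes, and 6 had an unadjusted p under 0.05, against 15.2% of all genes. At 24 h, 22 were higher, against 45.5%, and none had an unadjusted p under 0.05 (9.31% of all genes), and at 0 h, 28 were higher, against 49.9%, and none had one (3.32% of all genes).

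Leaving aside Oas3, which was near background, the largest differences at 72 h were those of Ifi27l2b, 1.15 (SE 0.38, adjusted p = 0.182), and Ifi27l2a, 1.09 (SE 0.46). Oas1a was higher by 1.03 (SE 0.29, adjusted p = 0.101), Xaf1 by 0.95 (SE 0.26, adjusted p = 0.0853) and Irf7 by 0.79 (SE 0.25, adjusted p = 0.157). The 4 knockout arrays were all above the 4 wild-type arrays for Oas1a, Xaf1 and Irf7, and overlapped them for both IFI27-like genes. The share of all genes whose arrays separate in this way was not worked out, so the separation is not taken as support for a difference. Ddx58, Ifih1, Trim25 and Cmpk2 differed by 0.13 or less.

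The calls between genotypes at 72 h depended on the fit. When only the 2 groups compared were fitted, 11 members were called, all higher in the knockout, against 3.59% of all genes. With arrays weighted by their quality, 24 were called, all higher, against 15.2% of all genes, and at 48 h 1 was called, Oasl1, against 2.78% of all genes. With the array slide as a block none was called at 72 h, against 1.09% of all genes, and the smallest adjusted p was 0.0565. Within the slides that held both groups at 72 h, 3 of 8, the members' median difference was 0.33, 0.72 and 0.67, with 31, 35 and 35 of 37 higher in the knockout. At 0 h it was 0.37, 0.01 and -0.02 on 3 slides, with 34, 20 and 18 higher, so that 1 saline slide gave a difference as large as the smallest at 72 h. At 24 h it was -0.09 on 1 slide, with 15 higher, and at 48 h 1.14 and -0.01 on 2 slides, with 36 and 16 higher.

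The marker means of leukocytes at 72 h, relative to wild-type saline, overlapped between the genotypes and did not all differ one way. The macrophage and monocyte mean ran from -1.30 to -0.83 in the wild type and from -0.85 to -0.25 in the knockout, a bare overlap. The neutrophil mean ran from -0.69 to -0.16 and from -0.51 to 0.75, and in saline from -0.73 to 0.59 and from -1.21 to -0.73. The mean of T, B and NK lymphocyte markers ran from -0.96 to -0.42 and from -1.24 to -0.63, and that of plasmacytoid dendritic cells from -0.98 to -0.52 and from -1.06 to -0.48. At 72 h the group means, wild type and then knockout, were -1.10 and -0.53 for macrophages and monocytes and -0.50 and 0.13 for neutrophils, both higher in the knockout. They were -0.62 and -0.89 for lymphocytes and -0.78 and -0.84 for plasmacytoid dendritic cells, both lower in the knockout. No marker of these 4 lists was called between the genotypes at 72 h, where 0.72% of all genes were. The part of these cells in the members' difference was not tested.

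The response to cisplatin was also compared between the genotypes by the interaction, the knockout change minus the wild-type change. No member was called at 24, 48 or 72 h, where 0.0%, 0.0% and 0.211% of all genes were. At 72 h the interaction was above 0 for 34 of 37 members, against 44.5% of all genes, with a median of 0.35 against -0.04 over all genes, and 6 had an unadjusted p under 0.05 (7.57% of all genes). These 6 were Ddx58, Oas1a, Ifi35, Ifi27l2a, Ifi27l2b and Xaf1, with 0.32 to 1.76, and the value of Ifi27l2b rests on its dim saline level. Without Oas3 and Ifi27l2b, 32 of 35 were above 0, with a median of 0.32. At 48 h 1 had an unadjusted p under 0.05 (7.17% of all genes) and at 24 h none had (3.31%). In the fit of the groups compared alone, 3 were called at 72 h, Oas1a, Cxcl10 and Parp14 (2.83% of all genes), and with array weights 2, Ifi27l2a and Ifi27l2b (5.12%).

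**Figure D5:**
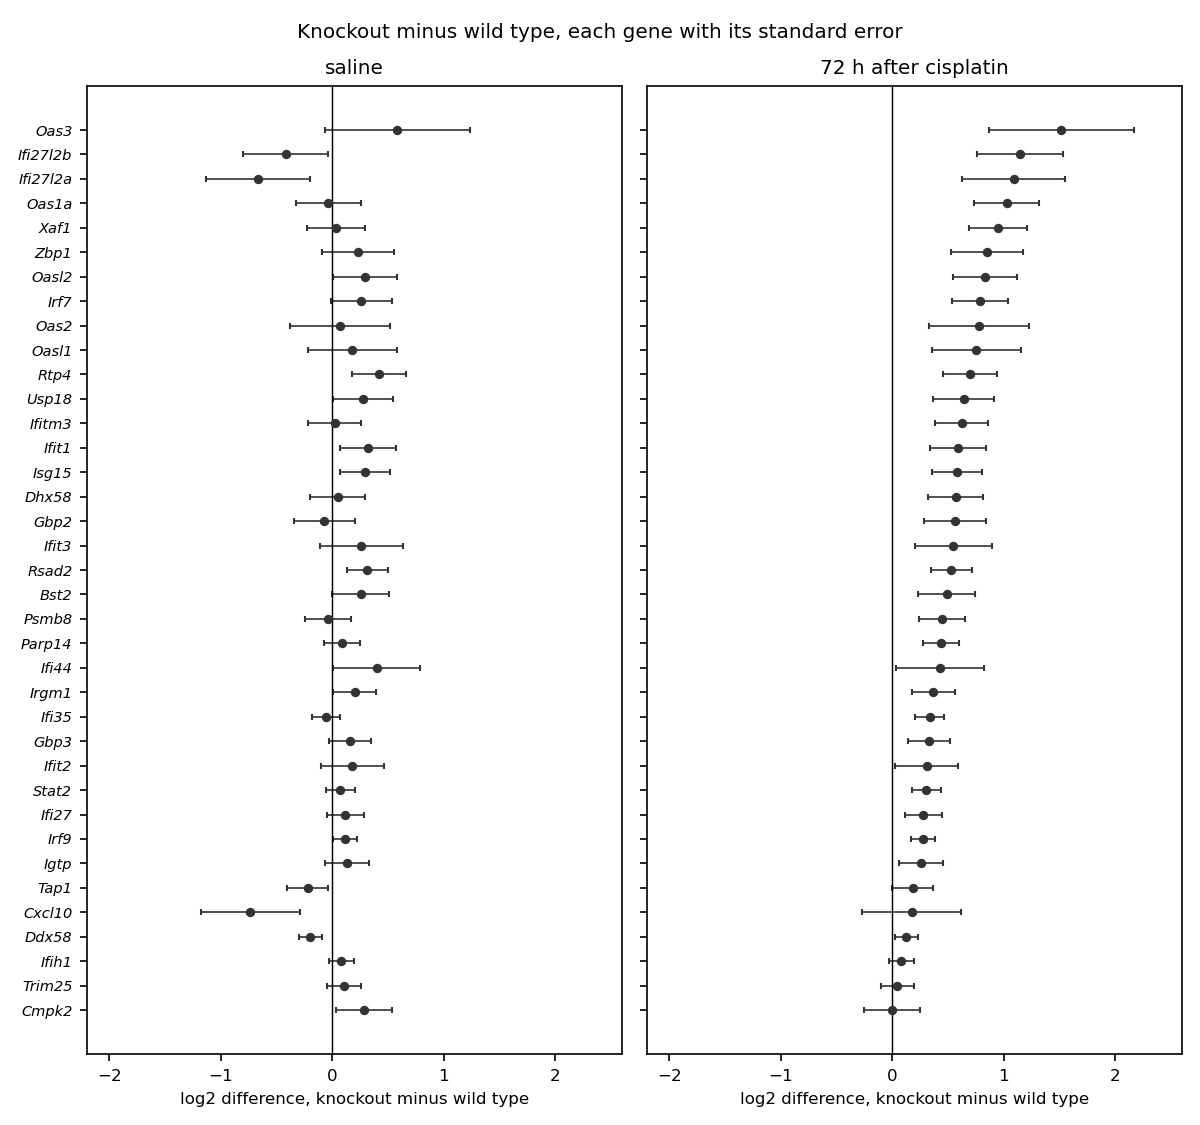
Log2 difference between knockout and wild type for each of the 37 genes in saline (left) and at 72 h after cisplatin (right), with bars for the standard error of the fit; rows are ordered by the value at 72 h. At 72 h 36 of 37 points lie above 0, with a median of 0.53, and in saline 28 of 37 do, with a median of 0.12; no point has an adjusted p under 0.05, and Oas3 was near background.

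The genes around the members in the pathway were read from lists of their own. Of 13 interferon genes, 8 could be tested, and Ifnb1 was not among them. Ifnk, interferon kappa of epithelia, rose in 5 of 6 comparisons, by 1.24 to 2.54. Its mean saline level was low, at -6.88 in the wild type and -6.52 in the knockout, so the size of this rise is less certain. Ifng, the type II interferon of T and NK cells, was called lower in the wild type at 48 and 72 h and in the knockout at 72 h. At 72 h it was well above background on none of the 4 arrays of either genotype, so that only a bound can be given. With each dim array held at its lowest signal well above background, it was at least 2.40-fold lower in the wild type. In the knockout it was at least 1.62-fold lower. Ifng passed the filter only through wild-type saline, where it is high, with 4 of 4 arrays well above background. In knockout saline 3 of 4 were. The filter thus favoured calls of a fall from saline, and they are not taken as support for one. At 48 h in the wild type 2 of 4 arrays were above background. The 5 interferon alpha genes tested were at 0.09 to 0.70, with 1 call, Ifna1 in the knockout at 24 h (0.65), and the near-identical members of this family may share probes. The median of the list at 72 h was 0.28 in the wild type and 0.21 in the knockout.

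Of 11 receptor chains, kinases and STATs, 4 rose in all 6 comparisons, Ifngr1, Ifngr2, Ifnlr1 and Stat3 (6.08% of all genes). Ifngr2, a chain of the interferon gamma receptor, rose by 0.86 to 1.48, Ifnlr1, of the interferon lambda receptor, by 0.55 to 1.26, and Stat3 by 0.83 to 1.42. Of 14 sensing genes tested, 2 rose in the wild type and 4 in the knockout at 72 h, against 12.5% and 17.7% of all genes. Sting1, the adaptor of cGAS, rose at 48 and 72 h in the wild type, by 0.77 and 1.11, and at all times in the knockout, by 1.49, 1.93 and 2.27. Myd88, an adaptor of Toll-like receptors, rose in all 6 comparisons by 0.48 to 0.85. Irf5 fell in the wild type, with differences of -0.44, -0.98 and -1.28, and Adar rose at 24 h by 0.57 in the wild type and 0.51 in the knockout.

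Of 7 brakes on signalling, Socs3 rose at 48 and 72 h in the wild type, by 2.10 and 2.74, and at all times in the knockout, by 2.41 to 3.59. Socs1, the known target of miR-155, rose in the knockout, by 1.51, 1.40 and 0.87, and was at 0.77, 0.72 and 0.31 with no call in the wild type; no gene of this list was called in the interaction. Ptpn2, a phosphatase of JAKs and STATs, rose in the knockout by 0.52 to 0.63, and Pias1 fell there at 24 h (-0.38). Among 7 further transcription factors of the response, Irf1 rose in all 6 comparisons by 0.88 to 1.02. Irf8 was lower in the wild type at 24 h (-0.40) and higher in the knockout at 72 h (0.60), and Ciita, the coactivator of MHC class II, was lower in the knockout at 24 and 48 h (-0.94 and -0.93). The medians at 72 h, wild type and then knockout, were -0.01 and 0.09 for the receptor list, 0.14 and 0.15 for the sensing list, 0.03 and -0.11 for the brakes and -0.09 and 0.17 for these factors.

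Of 30 other interferon-stimulated genes tested, 10 rose in the wild type at 72 h, against 12.5% of all genes, and 5 fell, against 12.8%. In the knockout at 72 h 12 rose, against 17.7% of all genes, and 2 fell, for which the share over all genes is not given here. The medians were 0.02 in the wild type and 0.51 in the knockout. Lgals3bp, a secreted glycoprotein, rose by 2.07 and 2.19 at 72 h, and Eif2ak2, the kinase PKR, rose in all 6 comparisons by 0.57 to 1.03. Ifi30, a lysosomal reductase, rose early, by 1.61 and 1.65 at 24 h, and Parp9 rose at 48 and 72 h by 0.58 to 0.74. Between the genotypes at 72 h 1 of these 30 genes was called, where 0.72% of all genes were. It was Ifi204, a DNA sensor, named because it was the only one (log2 difference 1.12). Of 10 genes of MHC class I presentation, 7 rose in the wild type and 9 in the knockout at 72 h, against 12.5% and 17.7% of all genes, with medians of 0.46 and 0.66. Tapbp, tapasin, rose by 0.48 to 0.85 in all 6 comparisons, and so did Psmb10, by 0.40 to 1.17, and Psme2, by 0.37 to 0.57, while Tap2 rose in 5 of the 6, by 0.27 to 0.68.

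Arrays of several groups shared slides, so the cisplatin differences were also read within slides. The members had been called from these same arrays, so agreement in direction was partly fixed in advance and is not independent support. The matching share over all called genes was not worked out. In the wild type 14 of the 14 members called at 24 h kept their direction within the 1 slide that held both groups. At 48 h 19 and 21 of 21 did within the 2 such slides. In the knockout 14 of 14 did at 24 h on both such slides, 22 of 26 on 1 slide at 48 h, and 27 of 27 and 25 of 27 on 2 slides at 72 h. No slide held both wild-type saline and wild-type 72 h arrays, so this comparison has no value within a slide.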

How the data were processed

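Kidney RNA of 32 mice was hybridised to Agilent 4x44k version 2 arrays. Per the file headers, each array was read with Feature Extraction 10.7.3.1, whose deposited processed signal is a linear intensity per spot, background-subtracted. The authors' deposited value table held the same intensity times 1 factor per array and served as an alternative. Control spots and outlier spots were left out, spots of a probe averaged and the log2 intensity taken minus each array's 75th percentile. Probes were named through their accession from a RefSeq table (GRCm38.p6), which gave a symbol to 27234 of 39429 probes. The brightest probe of a gene was kept if well above background on all arrays of 1 group or more, leaving 23743 genes and transcripts, of which 16454 had a symbol. The array design uses another build, so no array coordinate is printed.

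Group means were fitted with limma 3.58.1 (lmFit, contrasts, eBayes with trend) in R 4.3.3 over all 8 groups, and p-values were adjusted over all genes tested by the Benjamini-Hochberg method, in 15 comparisons. A call is an adjusted p under 0.05. On simulated data for the 48 h wild-type comparison, 57% of 2-fold and 90% of 4-fold changes were recovered. The simulation changed few genes and drew noise independently for each array, whereas 12.2% of all genes rose in the real comparison. Its rates therefore need not hold for the comparisons reported. The precision is limited by 4 arrays a group. Residuals of same-numbered arrays gave no sign of paired animals, with a mean correlation of -0.0045 (range -0.55 to 0.59), against 0.0021 for other numbers. Residuals of arrays on the same slide correlated by 0.25 on average, and the main fit held no slide term. The slide was a block in an alternative fit. Scans fell on 2 days, with all arrays of a slide on the same day, and the days were spread unevenly over the groups. Genes with values on every array were the 8 members with the largest called differences. Up to 4 called genes of each pathway list were named by smallest adjusted p. The members, lists and rules were chosen with earlier results of these data known. Alternatives covered background correction, normalization, filters, probe choice, slide and replicate blocks, array weights and leaving out each array.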

Additional observations from a re-analysis of the deposited data

Results flagged for a closer look

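The 8 genes with values on every array and the mean over the members were checked for a single array far from the other 3 of its group, by Dixon's ratio, in 71 groups of 4. Chance flags about 1 in 20 groups, and 3 were flagged. Cxcl10 in the knockout at 48 h was at -0.20 on replicate 3, against 2.25 to 2.67 on the others. Tap1 in the wild type at 48 h was at -0.89 on replicate 2, against -1.47 to -1.40 on the others. Ifit1 in wild-type saline was at -3.31 on replicate 3, against -3.11 to -3.09 on the others.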

How the results depend on the processing

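Over the 6 cisplatin comparisons, all 121 calls of members kept their direction with normexp, quantile normalization, both other filters, both blocks, the groups compared alone, array weights, the deposited table and no variance trend, and 119 did with the mean over all probes of a gene. Of the 121, 108 kept their call with the slide as a block, the lowest of these settings. The normexp setting was added after seeing the data. With the replicate block, all 121 calls were kept and 6 more were made, and no member was called between genotypes or in an interaction; its counts stayed within 1.5 times of those reported. Array weights and fits of the groups compared alone gave more genotype calls: 24 and 11 members at 72 h, 2 and 3 for the interaction at 72 h, and 1 with array weights at 48 h. Leaving out 1 array at a time gave 12 to 17 and 11 to 16 calls at 24 h (wild type, then knockout), 17 to 25 and 23 to 27 at 48 h, 16 to 18 and 25 to 26 at 72 h, 4 to 9 and 17 to 20 for 72 against 24 h, and 0 for every genotype and interaction comparison. Signal limits Oas3, and Ifi27l2b in saline; without both, counts of calls stayed within 1.5 times. The deletion and the breeder of the mice cannot be told apart.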
